A study of Rattus norvegicus with 4 samples.

Results

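Collagen chain genes and fibroblast-type matrix genes were followed across 4 cultures of rat cortical astrocytes. The genes were selected by symbol. All genes whose annotated symbol has the form of a collagen chain were taken, together with 21 listed matrix, receptor and meningeal genes. This gave 48 genes with a probe, 36 of them collagen chains and 12 not, out of 18166 genes on the array. The listed gene Col6a1 was not analysed here. Postn and Aldh1a2 were already known from earlier results of these data to be higher with SHP siRNA than with control siRNA, so their rank there is a description.

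The cells were primary astrocytes, trypsinized from the cortex of 1-day-old rats of the Sprague-Dawley strain and kept in serum-free MEM for 2 days, a step meant to remove microglia and meningeal cells. A first culture received SHP siRNA, IFN-γ and an agent labelled GW. The second received control siRNA, IFN-γ and GW, the third control siRNA and IFN-γ, and the fourth control siRNA with no further treatment. Treatment lasted 3 h. IFN-γ is the lymphocyte cytokine interferon-γ, and the labels spell out neither SHP nor GW. SHP can stand for small heterodimer partner, a nuclear receptor encoded by Nr0b2, or for the phosphatases encoded by Ptpn6 and Ptpn11. Each culture was measured on 1 array, so no difference below has a replicate check, an error or a p-value, and differences between conditions cannot be told apart from differences between single cultures.

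Collagens are secreted proteins whose chains wind into a triple helix. Fibrillar types build fibres, type IV builds the sheets of basement membranes, and other types decorate fibres or span cell membranes. Lysyl oxidases cross-link collagen outside the cell, and glycoproteins such as fibronectin, fibrillin and periostin tie it to cells. In the brain, fibroblasts of the meninges and of blood vessels are the main makers of fibrillar collagen, and mural cells, endothelial cells and astrocytes contribute to basement membranes. Primary astrocyte cultures usually carry some meningeal cells. In such a bulk sample, fewer cells of a type and less RNA per cell cannot be told apart.

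Values are log2 signals, and a difference of 1 is 2-fold. The median of all values in the table was 5.83, and the level at which signal meets background on these arrays is unknown. A gene was kept when its highest value over the 4 arrays reached that median, which held for 36 of the 48 genes (26 collagen chains and 10 others) and for 11790 genes in all. Array medians lay between 5.79 and 5.87. Nr0b2 stood at 3.45 with SHP siRNA, against 5.20, 5.14 and 5.33 in the control siRNA cultures with IFN-γ and GW, with IFN-γ and untreated. All 4 of those values lay below 5.83, so the label was checked only at low signal. Ptpn6 and Ptpn11 differed by -0.08 and 0.14 between SHP siRNA and control siRNA with IFN-γ and GW.

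With SHP siRNA, 2 matrix genes were at least 2-fold higher than with control siRNA under the same treatment, Postn at 2.69-fold and Aldh1a2 at 2.16-fold, and 0 were 2-fold lower. Of all genes past the filter, 0.144% were 2-fold higher and 0.263% lower. At 1.5-fold, 6 of 36 matrix genes were higher and 0 lower, where 1.42% of all genes were higher and 1.20% lower. The 6 were Postn, Aldh1a2, Lox, Pdgfra, Col3a1 and Loxl1. Col3a1 was the 1 gene among the 26 collagen chains, and the other 5 were among the 10 other genes. Those 10 were listed with earlier results of these data known, so the contrast with all genes is a description. The median over the 36 genes was 0.13 and that of all genes 0.01. Above 0 lay 26 matrix genes and below it 10, where 51.5% of all genes lay above 0. Col4a4, 1 of those below, passed the filter only through the IFN-γ with GW array, so it had to lie there.

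With GW added to IFN-γ, the matrix genes past a threshold were all lower. Aldh1a2 was 2.31-fold lower with IFN-γ and GW than with IFN-γ alone, the 1 matrix gene past 2-fold, and 0 were 2-fold higher. Among all genes 0.950% were 2-fold lower and 0.958% higher. At 1.5-fold 7 matrix genes were lower, Aldh1a2, Pdgfra, Col4a5, Postn, Lox, Loxl1 and Col14a1, and 0 were higher, where 4.97% of all genes were lower and 2.82% higher. The 26 chains held 2 of the 7 and had a median of 0.05. Among the chains, Col2a1, Col4a3, Col4a4 and Col7a1 passed the filter only through arrays with GW, so they had to lie above 0. The 10 other genes held 5 of the 7 and had a median of -0.43 with 9 below 0. All genes had a median of -0.05 with 57.8% below 0. Those 10 were listed with earlier results of these data known, so this contrast too is a description. After centring of each array on its median, Fn1, Sparc and Pdgfrb lay above 0, which left 6 of the 10 below, as did cyclic loess. Both this comparison and the SHP siRNA comparison use the IFN-γ with GW array, with opposite signs.

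IFN-γ alone went with little difference in these genes. None of the 36 genes reached 1.5-fold against the untreated culture (0 higher and 0 lower), so 0 were past 2-fold. Of all genes 3.02% were 1.5-fold higher and 1.59% lower, and 1.61% were 2-fold higher and 0.288% lower. A count of 0 of 36 is near these shares. The differences ran from -0.26 for Lox to 0.43 for Pdgfra, with a median of 0.06 against -0.04 for all genes.

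**Figure D1:**
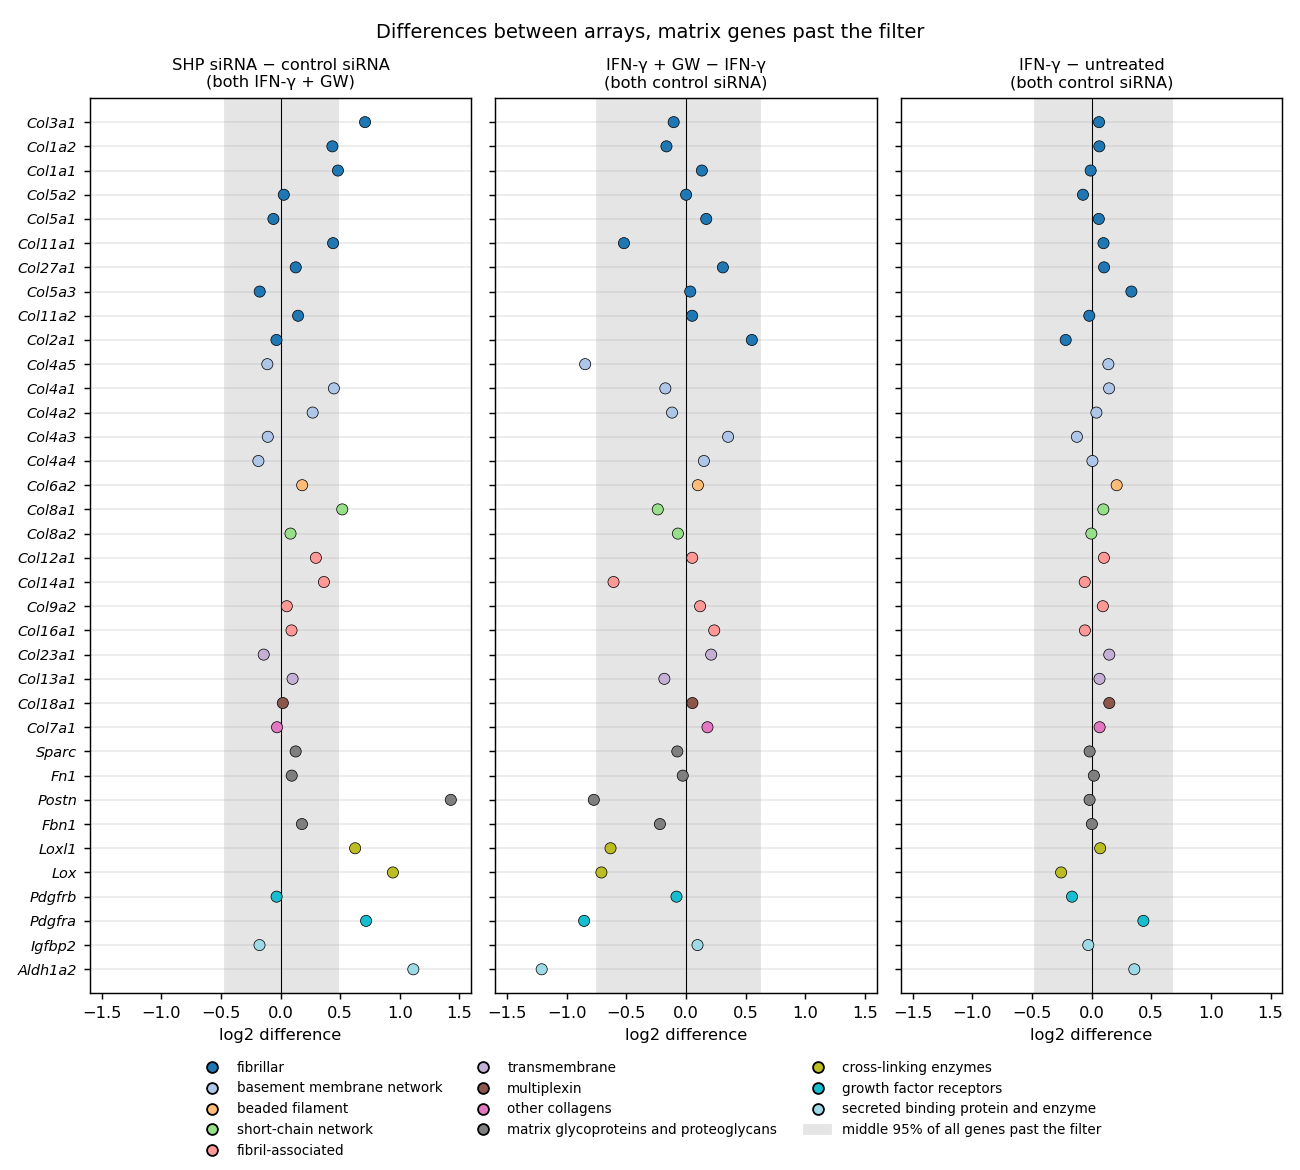
Log2 differences of the 36 matrix genes past the filter (rows) in the 3 comparisons (panels), coloured by class, with the middle 95% of all 11790 genes past the filter as a grey band. Outside the band lie Postn, Aldh1a2, Lox, Pdgfra, Col3a1, Loxl1, Col8a1 and Col1a1 with SHP siRNA (0.48 to 1.43), Aldh1a2, Pdgfra, Col4a5 and Postn with GW (-1.21 to -0.77), and no gene with IFN-γ.

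Among fibrillar collagens, types I and III were highest with SHP siRNA. Col3a1, the chain of type III collagen of loose reticular fibres, stood at 9.90 with SHP siRNA, 9.19 with IFN-γ and GW, 9.29 with IFN-γ and 9.23 untreated. The 3 control siRNA arrays lay within 0.10 of each other and the SHP siRNA array 0.60 above the highest of them. Col1a1, which encodes the major chain of type I collagen, read 8.94 with SHP siRNA, 8.46 with IFN-γ and GW, 8.33 with IFN-γ and 8.33 untreated. Col1a2, its partner chain, read 8.81 with SHP siRNA against 8.37, 8.54 and 8.47 in those 3 control siRNA cultures in the same order. The SHP siRNA culture was thus above all control siRNA cultures for both type I chains, by 0.48 for Col1a1 and 0.27 for Col1a2.

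The other fibrillar chains were not all alike. Type V chains, which seed and limit the width of type I fibres, differed little with SHP siRNA. Col5a2 was at 7.60 with SHP siRNA, against 7.57 with IFN-γ and GW, 7.57 with IFN-γ and 7.64 untreated, the narrowest range of any of the 48 genes. Col5a1 was at 7.17 with SHP siRNA, against 7.23, 7.06 and 7.00, and its second probe gave a SHP siRNA difference of -0.09 where the first gave -0.06. Col5a3 differed by -0.17 with SHP siRNA. Col11a1, which partners Col2a1 in cartilage fibrils, went with the GW-low genes, at 6.99 with SHP siRNA, 6.54 with IFN-γ and GW, 7.06 with IFN-γ and 6.97 untreated. Its partner Col2a1 went the other way, at 5.99 with SHP siRNA, 6.02 with IFN-γ and GW, 5.47 with IFN-γ and 5.69 untreated. Col2a1 passed the filter only through the 2 arrays with GW, where it was high. Col27a1 was at 7.10 with SHP siRNA and 6.97 with IFN-γ and GW, above 6.66 with IFN-γ and 6.56 untreated, and Col11a2 stayed between 6.04 and 6.24.

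Type IV collagen of basement membranes split by chain. Col4a1 read 7.52 with SHP siRNA, 7.07 with IFN-γ and GW, 7.25 with IFN-γ and 7.10 untreated. Col4a2, which joins it in the common type IV trimer, read 7.31 with SHP siRNA against 7.04, 7.16 and 7.12. Both were highest with SHP siRNA and lowest with IFN-γ and GW, although the gap between the lower 3 arrays was small. Col4a5, a chain of a more restricted network, behaved otherwise, at 6.89 with SHP siRNA, 7.00 with IFN-γ and GW, 7.84 with IFN-γ and 7.70 untreated. It was 1.80-fold lower with GW and differed by -0.11 with SHP siRNA, so both arrays with GW lay below both arrays without it. Col4a3 and Col4a4 lay close to the filter, with highest values of 6.01 and 5.85 and no difference beyond 0.35 in the 3 comparisons.

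Col4a1 and Col4a2 are transcribed away from each other from facing start sites, and the stretch between these is shown because the pair had differences of the same sign in all 3 comparisons. In RefSeq's rat assembly GRCr8 it spans chr16:84885521-84885596, 76 bases, given here on the plus strand, which is the strand of Col4a1. Capitals mark a GC box, searched as GGGCGG on both strands, which lies on the minus strand here.
Col4a1-Col4a2: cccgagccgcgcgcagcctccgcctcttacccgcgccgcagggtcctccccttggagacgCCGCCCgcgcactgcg
The single match starts at position -16 from the Col4a1 start. GGGCGG was found in the 250 bases before the start of 32.4% of 27457 genes in that table, a longer window than this stretch. The match describes the stretch and is not shown to be a bound site.

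Of the chains that coat fibres, Col12a1 and Col14a1 differed from each other. Col12a1 stood at 9.95 with SHP siRNA, 9.66 with IFN-γ and GW, 9.60 with IFN-γ and 9.50 untreated. Col14a1 stood at 9.11 with SHP siRNA and 8.74 with IFN-γ and GW, below 9.35 with IFN-γ and 9.41 untreated. Col12a1 was therefore highest with SHP siRNA, and Col14a1 was lower in both cultures with GW. Col16a1 and Col9a2 were within 0.33 and 0.27 over the 4 arrays.

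Among network and filament collagens, Col8a1, a short chain of vessel walls, read 7.46 with SHP siRNA, 6.94 with IFN-γ and GW, 7.18 with IFN-γ and 7.08 untreated. Col8a2 stayed within 0.08 over the arrays. Col6a2, a chain of the beaded filaments around cells, read 8.89 with SHP siRNA, 8.71 with IFN-γ and GW, 8.61 with IFN-γ and 8.40 untreated. Col8a1 and Col6a2 were each highest with SHP siRNA, though less than 1.5-fold above the IFN-γ with GW culture. Col18a1 (the source of endostatin), the transmembrane chains Col13a1 and Col23a1 and the anchoring fibril chain Col7a1 differed by at most 0.21 in the 3 comparisons.

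**Figure D2:**
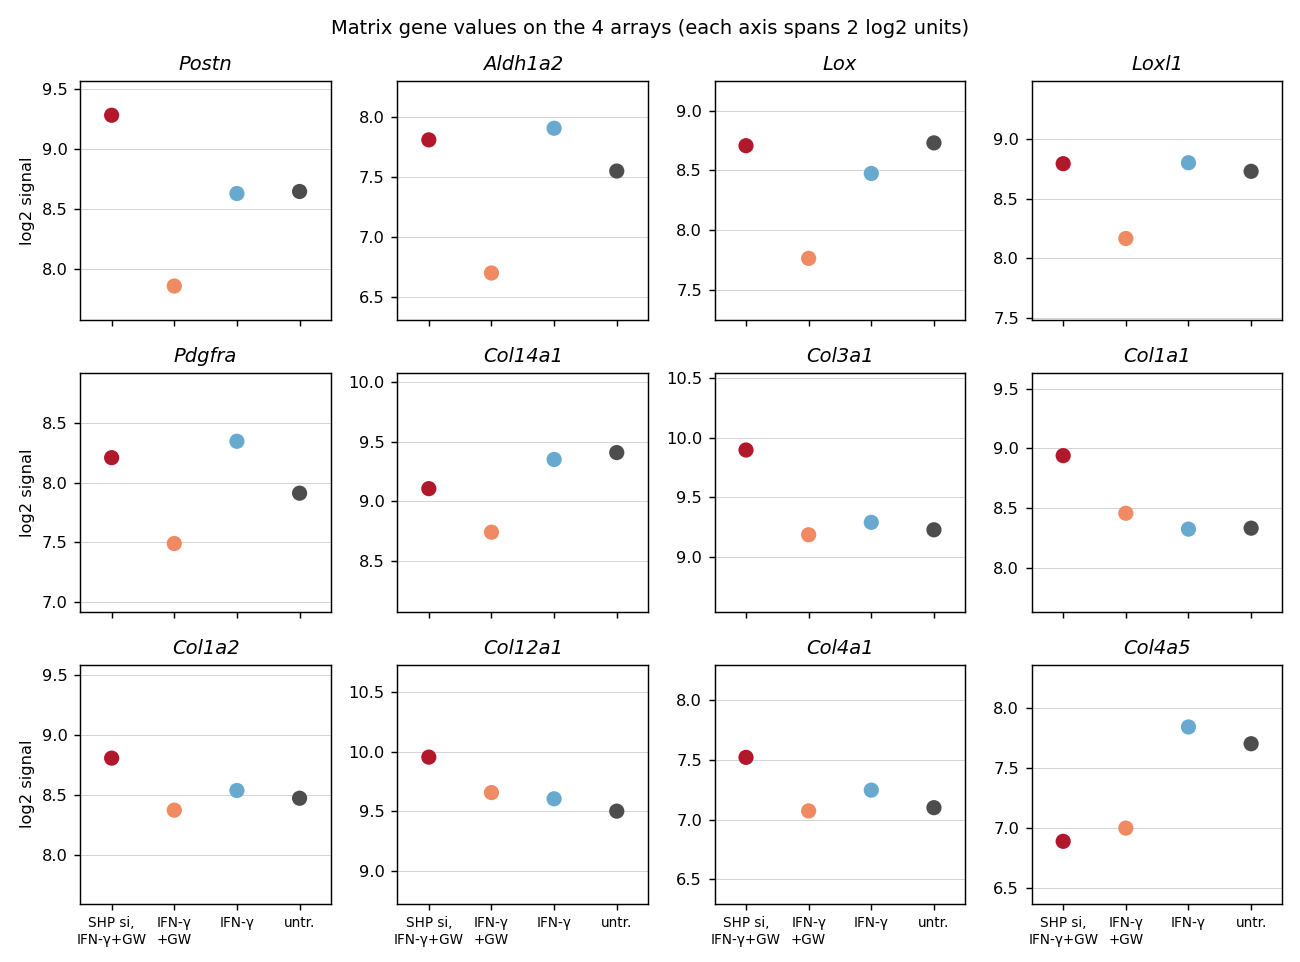
Log2 signal of 12 matrix genes on each of the 4 arrays, 1 point per array and 1 panel per gene, every axis spanning 2 log2 units. Postn, Aldh1a2, Lox, Loxl1, Pdgfra and Col14a1 are lowest with IFN-γ and GW, Col3a1, Col1a1, Col1a2, Col12a1 and Col4a1 are highest with SHP siRNA, and Col4a5 is low in both cultures with GW.

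Postn gave the greatest spread of all 48 genes. It encodes periostin, a matricellular protein of fibroblasts that binds collagen and integrins. It read 9.28 with SHP siRNA, 7.85 with IFN-γ and GW, 8.63 with IFN-γ and 8.64 untreated. The cultures without GW were alike, the control siRNA culture with GW lay 0.77 below them and the SHP siRNA culture 0.64 above them. The SHP siRNA value was thus 1.57-fold above IFN-γ alone, a difference that does not use the IFN-γ with GW array.

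The abundant glycoproteins were nearly level. Fn1 (fibronectin, which links integrins to collagen) read 12.13 with SHP siRNA, 12.04 with IFN-γ and GW, 12.06 with IFN-γ and 12.04 untreated. Sparc, a collagen-binding protein, read 12.85, 12.72, 12.79 and 12.81 in the same order. Their ranges over the 4 arrays were 0.09 and 0.13. Fbn1, the fibrillin of elastic microfibrils, stood at 8.28 with SHP siRNA, 8.10 with IFN-γ and GW, 8.31 with IFN-γ and 8.31 untreated.

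The 2 small leucine-rich proteoglycans on the list, lumican and decorin, were low. Lum (lumican) lay between 3.71 and 3.96, and Dcn (decorin) stood at 5.06 with SHP siRNA, 4.69 with IFN-γ and GW, 4.33 with IFN-γ and 4.54 untreated. Neither passed the filter. Both are usual markers of meningeal and other fibroblasts. Proteoglycans of the same family outside the list, Bgn (11.91 to 12.02), Fmod (11.73 to 11.84), Ogn (10.83 to 11.10) and Prelp (10.13 to 10.20), were well above the filter on every array. Of the usual fibroblast and meningeal genes on the list, Col1a1, Col1a2, Col3a1, Postn, Aldh1a2, Pdgfra and Pdgfrb passed, and Lum and Dcn did not.

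Of the lysyl oxidase family, the listed genes Lox and Loxl1 were lowest with IFN-γ and GW. Outside the list Loxl2 was lowest there too, at 6.98 with SHP siRNA, 6.87 with IFN-γ and GW, 7.37 with IFN-γ and 7.38 untreated. Loxl3 (8.59 with SHP siRNA, 8.92 with IFN-γ and GW, 9.27 with IFN-γ, 9.39 untreated) and Loxl4, given with the collagen enzymes, were not lowest there. Lox, which oxidises lysines of collagen and elastin before they cross-link, stood at 8.71 with SHP siRNA, 7.76 with IFN-γ and GW, 8.47 with IFN-γ and 8.73 untreated. It was 1.92-fold higher with SHP siRNA than with control siRNA under the same treatment, and within 0.02 of the untreated culture. Loxl1, which acts chiefly on elastin, stood at 8.79 with SHP siRNA, 8.17 with IFN-γ and GW, 8.80 with IFN-γ and 8.73 untreated. The 3 arrays other than IFN-γ with GW lay within 0.07 of each other for Loxl1, and that array 0.56 below the lowest of them.

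The receptors for platelet-derived growth factor differed from one another. Pdgfra, carried by fibroblasts and by oligodendrocyte precursors, read 8.21 with SHP siRNA, 7.49 with IFN-γ and GW, 8.35 with IFN-γ and 7.91 untreated. It was 1.64-fold higher with SHP siRNA than with control siRNA, and 1.81-fold lower with GW than without it. Pdgfrb, carried by mural cells and fibroblasts, read 9.43, 9.46, 9.54 and 9.70 in the same order, with a SHP siRNA difference of -0.03. Pdgfra was lowest with IFN-γ and GW, whereas Pdgfrb was lowest with SHP siRNA and stayed within 0.28 over the arrays.

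Aldh1a2 encodes the retinaldehyde dehydrogenase by which meningeal cells make retinoic acid. It read 7.81 with SHP siRNA, 6.70 with IFN-γ and GW, 7.91 with IFN-γ and 7.55 untreated. The SHP siRNA value lay within 0.10 of IFN-γ alone, and the IFN-γ with GW value 0.85 below the lowest other array. Igfbp2, which binds insulin-like growth factors and is made by astrocytes and by meningeal cells, stayed between 10.37 and 10.55 and was lowest with SHP siRNA.

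The proximal promoters of Aldh1a2 and Loxl1, lowest with IFN-γ and GW, and of Col1a2, highest with SHP siRNA, are shown as examples of those patterns whose window lies outside the annotated gene. Each is the 250 bases before the start in RefSeq's GRCr8, at chr8:80758391-80758640 (plus strand, Aldh1a2), chr8:67612225-67612474 (minus strand, Loxl1) and chr4:33518307-33518556 (plus strand, Col1a2), read along the strand of the gene. Capitals mark matches on either strand to the CCAAT box, the TATA box searched as TATAAA, the GC box given above or the AP-1 site searched as TGANTCA.
Aldh1a2: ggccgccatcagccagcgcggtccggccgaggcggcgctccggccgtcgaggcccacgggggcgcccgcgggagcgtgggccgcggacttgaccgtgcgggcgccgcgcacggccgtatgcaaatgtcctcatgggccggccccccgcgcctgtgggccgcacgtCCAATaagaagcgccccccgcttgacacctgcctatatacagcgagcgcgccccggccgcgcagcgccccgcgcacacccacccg
Loxl1: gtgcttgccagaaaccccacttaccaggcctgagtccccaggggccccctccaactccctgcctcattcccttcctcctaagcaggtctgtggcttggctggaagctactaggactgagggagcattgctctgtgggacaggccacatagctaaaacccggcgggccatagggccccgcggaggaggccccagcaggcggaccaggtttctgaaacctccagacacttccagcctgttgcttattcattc
Col1a2: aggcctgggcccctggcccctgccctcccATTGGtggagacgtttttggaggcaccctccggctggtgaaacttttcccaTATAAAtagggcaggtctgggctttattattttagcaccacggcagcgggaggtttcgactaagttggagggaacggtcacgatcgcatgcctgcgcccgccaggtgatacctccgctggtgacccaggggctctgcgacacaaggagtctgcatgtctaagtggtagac
Aldh1a2 held CCAAT at position -85 from its start. Loxl1 held 0 matches, and Col1a2 held TATAAA at -170 and, on the opposite strand, CCAAT at -221. Of the 48 genes 38 had a promoter in the table. CCAAT was in 28.9% of them and 34.3% of all 27457 genes, TATAAA in 13.2% and 13.1%, GGGCGG in 50.0% and 32.4%, and TGANTCA in 2.63% (Pdgfra) and 6.36%. The GGGCGG share counts Col4a1 and Col4a2, whose windows overlap in the 76 bases between their starts, separately. No match was tested against the arrays.

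Seen gene by gene, the SHP siRNA array was the highest of the 4 for 17 of the 36 genes, or 47.2%, where this held for 19.8% of all genes past the filter. Most of them were collagen chains, and Postn, Fn1 and Sparc were the others. For 2 genes, Postn and Col3a1, the SHP siRNA value was at least 1.5-fold above each other array (0.170% of all genes). The IFN-γ with GW array was the lowest for 17 genes, 47.2% against 32.0% of all genes, but for 11 (30.6%) against 24.4% once each array was centred on its median. It was at least 1.5-fold below each other array for 3 genes, Postn, Aldh1a2 and Lox (0.305% of all genes). Only Postn was in both of those smaller sets.

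The comparison of the SHP siRNA culture with IFN-γ alone leaves out the IFN-γ with GW array. In it 3 matrix genes were at least 1.5-fold higher, Postn (0.65), Col1a1 (0.61) and Col3a1 (0.60), where 2.00% of all genes were. Col4a5 was the 1 gene at least 1.5-fold lower, at -0.96, where 3.72% of all genes were. Aldh1a2 (-0.10), Loxl1 (-0.01), Pdgfra (-0.14) and Lox (0.23) were near their level with IFN-γ alone. Of the 6 genes 1.5-fold higher with SHP siRNA than with control siRNA, Postn and Col3a1 were thus above every control siRNA array, and Aldh1a2, Lox, Pdgfra and Loxl1 were not. Over the 26 collagen chains the median against IFN-γ alone was 0.16 with 20 above 0, where all genes had a median of -0.04 with 42.7% above 0. Col2a1, Col4a3 and Col7a1 passed the filter only through the arrays with GW, so these chains had to lie above 0. Over the 10 other genes the median was -0.02 with 4 above 0, close to the share of all genes. The median of those 10 lay above 0, between 0.03 and 0.05, under quantile normalization, cyclic loess and median centring.

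**Figure D3:**
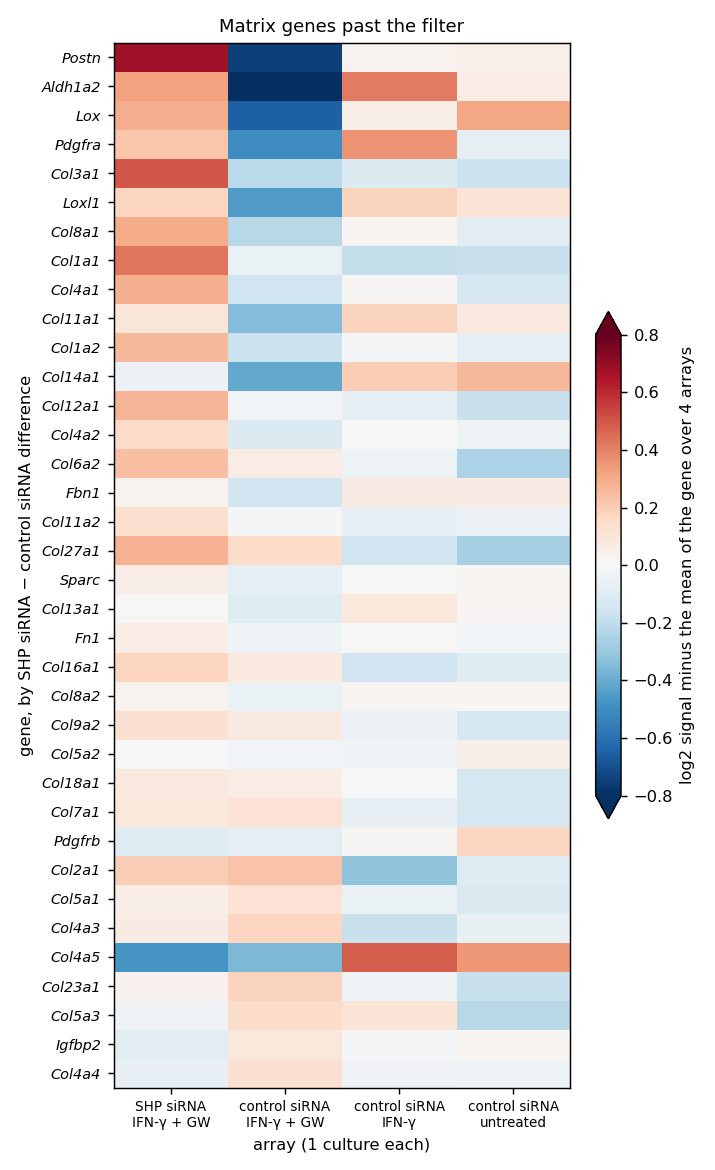
Log2 signal of each of the 36 matrix genes past the filter minus its own mean over the 4 arrays, with 1 column per array and genes ordered by the SHP siRNA minus control siRNA difference. The upper rows are low (blue) in the IFN-γ with GW column, Postn, Col3a1 and Col1a1 are highest in the SHP siRNA column, and Col4a5 is low in both columns with GW.

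The 12 genes that did not pass the filter were Lum, Dcn, Col6a3, Col6a6, Col9a1, Col10a1, Col15a1, Col17a1, Col19a1, Col20a1, Col24a1 and Col26a1. Col6a3, a beaded filament chain and fibroblast marker, stood at 5.45 with SHP siRNA, 5.23 with IFN-γ and GW, 5.14 with IFN-γ and 5.36 untreated. None reached 1.5-fold in the 3 comparisons (0 higher and 0 lower), where between 1.30% and 3.64% of all 6376 genes below the filter did in each direction and comparison, so 0 of 12 is near that share. With GW 10 of the 12 lay above 0 and their median was 0.19, where 64.5% of those 6376 genes lay above 0 with a median of 0.09. After quantile normalization 7 of the 12 lay above 0 and the median was 0.10. Just inside the filter were Col4a4 and Col7a1, with highest values of 5.85 and 5.94, and just outside it Col9a1 and Col24a1, at 5.73 and 5.60.

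Related gene lists, chosen with earlier results of these data known, are read against the shares of all genes past the filter. With SHP siRNA 51.5% of all genes lay above 0, 1.42% were 1.5-fold higher and 1.20% lower. With GW 57.8% lay below 0 with a median of -0.05, 4.97% were 1.5-fold lower and 2.82% higher.

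Enzymes that build and process collagen differed with GW in part. With GW, 3 of the 23 above the filter were 1.5-fold lower or more and 0 higher, with 19 below 0 and a median of -0.22. P3h4, a partner of the collagen-modifying hydroxylases, stood at 6.28 with SHP siRNA and 6.26 with IFN-γ and GW, against 7.59 with IFN-γ and 7.35 untreated. Fkbp10 and Plod2, which act in lysine hydroxylation of collagen, differed by -0.76 and -0.59. Serpinh1, the collagen chaperone that is also a heat shock gene, went the other way at 0.53. With SHP siRNA, 1 of the 23 was 1.5-fold higher, the lysyl oxidase gene Loxl4 (0.78), and 1 lower, the prolyl hydroxylase gene P3h2 (-0.59). Loxl4 was also the 1 gene past 1.5-fold with IFN-γ, at 9.35 against 7.79 untreated.

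Among matrix proteases and their inhibitors, some genes were likewise lowest with IFN-γ and GW. With GW, 6 of the 21 above the filter were 1.5-fold lower or more and 1 higher, the urokinase gene Plau (0.72). Mmp2, the gelatinase A gene of fibroblasts, stood at 7.53 with SHP siRNA, 6.53 with IFN-γ and GW, 7.45 with IFN-γ and 7.21 untreated. Ctsk, a collagen-degrading cathepsin gene, stood at 7.14, 6.48, 7.13 and 7.13 in the same order. Both were 1.5-fold higher with SHP siRNA, the only ones of the 21, while Adamts1 was lower (-0.98). Adamts4, which cleaves proteoglycans, was high with IFN-γ alone, at 8.40 against 6.71 untreated, and at 6.71 with IFN-γ and GW.

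Receptors for matrix were mostly level with SHP siRNA, with 1 of 17 at least 1.5-fold higher and 0 lower. That gene was Itga8, an integrin chain of mesenchymal cells, at 7.64 with SHP siRNA, 6.66 with IFN-γ and GW, 7.58 with IFN-γ and 7.12 untreated. Itga5, the fibronectin receptor chain, was at 9.33 with IFN-γ and at 8.43 untreated, and at 8.42 with IFN-γ and GW. Other matrix glycoproteins and proteoglycans had a median of 0.20 with SHP siRNA over 27 genes, 20 of them above 0. The 2 at least 1.5-fold higher were Nid1 (nidogen, 0.75) and Lama2 (a laminin chain, 0.61), with Nid2 at 0.56. Lama2 passed the filter only through the SHP siRNA array, at 6.35 against 5.74, 5.55 and 5.62 in the others, so it had to differ. Mgp, an inhibitor of calcification, was 2-fold lower with GW at -1.23, the 1 such gene of the 27.

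Genes of transforming growth factor β signalling, a main inducer of collagen, had medians of 0.08 with SHP siRNA and 0.04 with GW over 19 genes. Tgfbi, which encodes a collagen-binding matrix protein, stood at 7.12 with SHP siRNA, against 6.44, 6.26 and 6.19 in the cultures with IFN-γ and GW, with IFN-γ and untreated. Ltbp1 (-0.62) and Tgfb3 (-0.59) were the 2 genes at least 1.5-fold lower with SHP siRNA. With GW 1 of the 19 was 1.5-fold lower, the ligand gene Tgfb1, at 8.88 with IFN-γ and GW against 9.48 with IFN-γ (-0.60). In the retinoic acid list, beside Aldh1a2, 1 of 13 was 1.5-fold higher with SHP siRNA, Stra6, a retinol carrier receptor gene, at 0.81. Rarg, a retinoic acid receptor gene, was the 1 gene of the 13 at least 1.5-fold lower with GW (-0.83), and it was 1.08 higher with IFN-γ than untreated.

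Other markers of meningeal cells and fibroblasts were also mostly higher with SHP siRNA. Of 16 such markers outside the 48 genes 12 passed the filter, and with SHP siRNA 10 of the 12 lay above 0 with a median of 0.35 and 1 at least 1.5-fold higher, where 51.5% of all genes lay above 0 and 1.42% were 1.5-fold higher. Against IFN-γ alone 11 of the 12 lay above 0, with a median of 0.22, where 42.7% of all genes lay above 0. The markers were chosen with earlier results of these data known, so these counts are a description and no independent support. Igf2, an insulin-like growth factor of the meninges, stood at 6.52 with SHP siRNA, against 5.85 with IFN-γ and GW, 5.91 with IFN-γ and 5.84 untreated. Zic1, a transcription factor of meninges and cerebellum, stood at 8.43, 7.92, 7.96 and 8.02 in that order. Both were highest with SHP siRNA. Osr1 and Foxc1, also transcription factor genes of mesenchyme, differed by 0.55 and 0.49. Osr1 was not highest with SHP siRNA, at 9.12 there, 8.57 with IFN-γ and GW, 8.88 with IFN-γ and 9.39 untreated. The 2 markers below 0 with SHP siRNA were Crabp2 (-0.09) and Slc22a6 (-0.10).

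The summed linear signal of all 16 was 4426 with SHP siRNA, 3427 with IFN-γ and GW, 4049 with IFN-γ and 3577 untreated. For the 48 matrix genes that sum was 22813, 19925, 21330 and 21174 in the same order. Both sums were highest with SHP siRNA and lowest with IFN-γ and GW, an order that the astrocyte marker sum below shared. Few genes carry them. Without Prrx1 the meningeal sum was 2303 with SHP siRNA, 1801 with IFN-γ and GW, 1943 with IFN-γ and 2117 untreated. Without Sparc and Fn1 the matrix sum was 10957, 8973, 9945 and 9762 in the same order, and the highest and lowest arrays stayed as before in both. Foxd1, Slc6a13, Slc47a1 and Twist1 stayed below 5.83 in all cultures. The part of meningeal cell content in the collagen differences was not tested.

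Markers of other cell types are given beside these. Astrocyte markers had a median of 0.09 with SHP siRNA over 11 genes and -0.19 with GW, and their summed signal was 21849 with SHP siRNA, 18930 with IFN-γ and GW, 21160 with IFN-γ and 19676 untreated. Aqp4, the water channel gene of astrocyte endfeet, differed by 0.71 with SHP siRNA, and Gfap, the astrocyte filament gene, stayed between 12.03 and 12.11. Of 6 mural cell markers, Pdgfrb included, 1 lay above 0 with SHP siRNA, Cspg4 at 0.41, and the median was -0.12. The mural marker Abcc9 passed the filter only through the IFN-γ with GW array, so it had to lie below 0. It stood at 6.06 there, against 5.72 with SHP siRNA, 5.76 with IFN-γ and 5.54 untreated. Only 3 of 9 endothelial markers with a probe passed the filter, with Cdh5 at 0.55 and Ocln at -0.31. Oligodendrocyte lineage markers, which include Pdgfra, had a median of 0.11 over 8 genes, with Olig2 at -0.19 and Sox10 at 0.18. Although the serum-free step was meant to remove microglia, 13 of 14 microglia markers passed the filter. They had a median of 0.17 with SHP siRNA, -0.42 with GW and -0.52 with IFN-γ. Their summed signal was 6458 with SHP siRNA, 5808 with IFN-γ and GW, 8011 with IFN-γ and 10586 untreated. Neuron markers had 3 genes past the filter and a median of 0.06. The part of these cells in the matrix gene values was not tested.

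**Figure D4:**
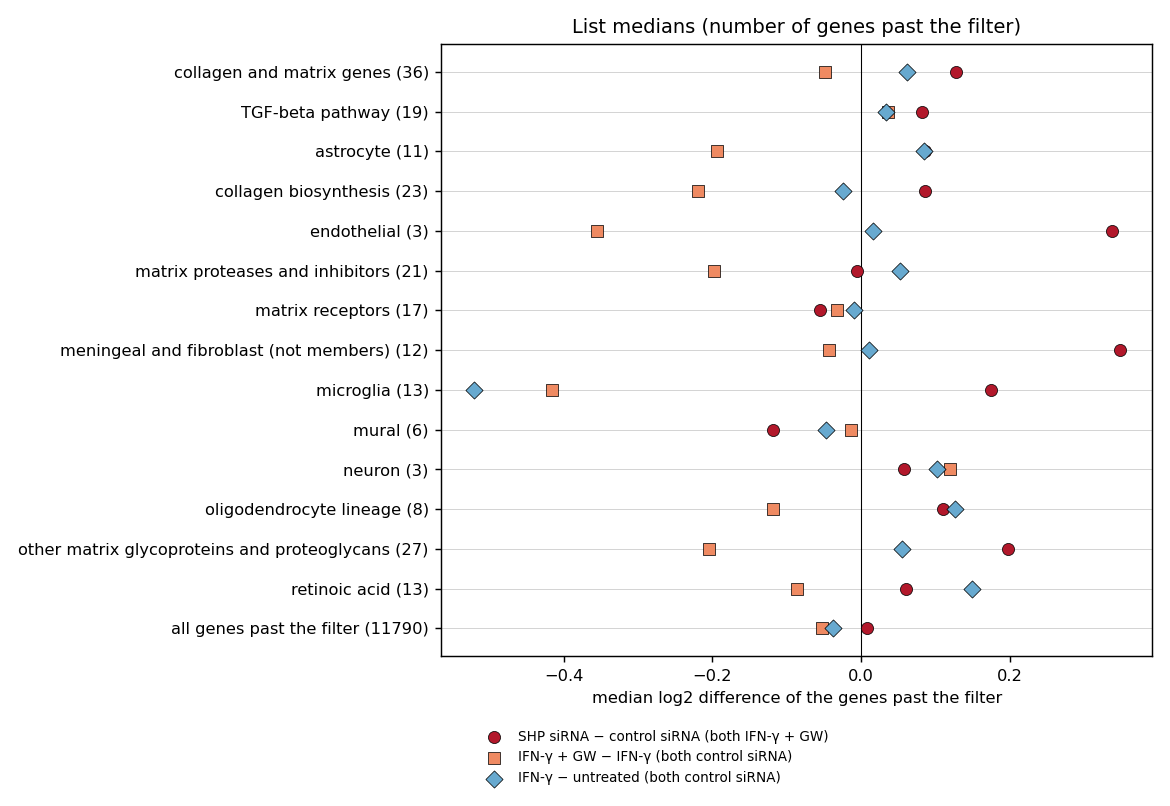
Median log2 difference over the genes of each list past the filter (number in brackets) for SHP siRNA minus control siRNA (circles), IFN-γ with GW minus IFN-γ (squares) and IFN-γ minus untreated (diamonds). With SHP siRNA the highest medians are those of the meningeal and fibroblast markers at 0.35 and the 3 endothelial markers at 0.34, and the collagen and matrix genes stand at 0.13.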

How the data were processed

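Expression was measured on 4 single-colour whole-transcript arrays, 1 per culture, from Trizol-extracted RNA made into biotin-labelled sense-strand cDNA, per the labels' protocols. The authors' deposited values, 1 per probe and array for 29489 probes, run from 1.14 to 13.4 and were read as log2 signal for that reason. Neither the log base nor the background correction, probe summary or normalization is given in the sources used here.

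The probe annotation gives 1 symbol to 18511 probes, and only these were named. A gene with several probes was represented by the one of highest mean. Genes whose highest value reached the median of all values were kept. With 1 array per group, differences of log2 values were read against 2-fold and 1.5-fold, with no test. The counting was tested on simulated data. Members and companion lists were chosen with earlier results of these data known. The named genes are the 21 listed genes, other chains past the filter that differ by 1.5-fold between any arrays, the chains of each class with the highest mean, those next to the filter, and up to 4 genes per companion list and comparison with the greatest differences. The remaining collagen chains are named to account for every member. Bgn, Fmod, Prelp, Loxl2, Loxl3, Gfap, Crabp2, Slc22a6, Foxd1, Slc6a13, Slc47a1 and Twist1 were named after their values were seen.

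Alternatives were quantile normalization and cyclic loess (limma 3.58.1, R 4.3.3), median centring, other filters, probe rules and thresholds, and subsets of members. Other steps used Python 3.11.15.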

Additional observations from a re-analysis of the deposited data

How the results depend on the processing

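No paired analysis was possible because each group holds 1 array, so the 1 replicate number they all carry gives a single set and no residual spread. A pseudocount was not needed on the log2 scale and was not run. The median of the matrix genes with GW, -0.05 over 36 genes, turned to 0.034 after median centring, to 0.036 without the filter and to 0.051 over collagen chains alone, where the first is the shift of all genes and the others change the genes counted. The SHP siRNA median of 0.13 was 0.249 as a mean and 0.352 over the 18 listed genes past the filter. The count of genes lower with GW was 7 at 1.5-fold and 0 at 3-fold against 1 at 2-fold, and that of genes higher with SHP siRNA 6 and 0 against 2. Of 78 medians and counts under these alternatives, 69 neither turned, moved by 0.1 log2 nor changed by over 1.5 times. The 69 include counts of 0 that stayed 0, which at 3-fold could not change. The mean of probes could alter Col5a1 alone. The 22 differences of single matrix genes past 1.5-fold were followed under 3 other scalings and the mean of probes after the data were seen. They kept their direction in 88 of 88 values, and 3 of the values moved by at least 0.1 (at most 0.12). Part of this was fixed in advance. The mean of probes could not change these values, because Col5a1, the only member with a second probe, is not among them. Median centring shifts all genes of a comparison alike, by less than 0.1, so it could turn none of them. After the 3 other scalings the SHP siRNA array was the highest for 21 genes in place of 17, out of 35 or 36. Its share over all genes past the filter rose as well, from 19.8% to between 22.2% and 25.7%. The number of arrays limits the precision, and low values are limited by the unknown background.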

Other observations

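Differences that share no array were set side by side across genes, which are not independent replicates. The SHP siRNA minus IFN-γ difference and the IFN-γ with GW minus untreated difference correlated at r = 0.35 over the 36 matrix genes (Spearman 0.37) and at 0.54 over all 11790 genes (Spearman 0.55). Both compare a culture with GW to one without it, and Col4a5 was low in both, at -0.96 and -0.71. Aldh1a2 (-0.10 and -0.85) and Lox (0.23 and -0.97) were near the IFN-γ level in the first and low in the second. The SHP siRNA difference and the IFN-γ difference, which also share no array, correlated at 0.14 over the matrix genes and 0.15 over all genes. A further such pair was SHP siRNA minus untreated and IFN-γ with GW minus IFN-γ, which also set cultures with GW against cultures without it. That pair correlated at 0.26 over the matrix genes (Spearman 0.21) and at 0.40 over all genes (Spearman 0.47).

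P3h4 and Mgp were low in both cultures with GW, as Col4a5 was. Mgp stood at 7.95 with SHP siRNA and 7.52 with IFN-γ and GW, against 8.75 with IFN-γ and 8.87 untreated.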
